A study of Mus musculus with 4 samples.

Results

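Autophagy genes are described here in retinal ganglion cells, which send the eye's output to the brain, sorted from mice with a crushed optic nerve. The 38 genes were taken from a named list of factors that start autophagy, build the autophagosome, conjugate the Atg8 proteins and tie cargo to the membrane. All 38 had an identifier among the 78334 in the counts table, and 37 passed the filter on low counts. The exception was Tfeb, with 0 counts in all 4 libraries.

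All animals carried the WT genotype, were of both sexes and were 8 weeks old when AAV2, an adeno-associated virus, was injected into the vitreous. Both vectors expressed mCherry together with an shRNA, either anti-miR132-3p, complementary to the microRNA miR-132-3p, or the scramble control, and the nerve of every animal was crushed 2 weeks after the injection. Cells were collected 2 weeks after the crush from 10 pooled retinas per condition, panned for Thy1 and sorted for mCherry, with about 5000 cells for each of 2 libraries per group. About 40% of ganglion cells were transduced, and the promoter driving the shRNAs is not given in the sources used here. The columns named for mCherry were read as scramble by exclusion, since the other columns name miR132, and every direction below depends on that.

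Library totals lay between 1731199 and 1846637 counts, and 3 counts in a library corresponded to 1.62 to 1.73 CPM (counts scaled to a common library total). Within each group the 2 libraries differed by no more than sampling noise, with a chi-square per degree of freedom of 1.02 (scramble) and 1.00 (anti-miR132-3p), against 4.01 to 4.03 for pairs across the groups. Each pair was therefore counted as 1 sample, n = 1 per group, so no difference has a replicate check. Folds are ratios of CPM of counts summed over a pair and scaled by TMM, and their 95% intervals (exact, Clopper-Pearson) cover counting error only. A gene is said to have risen or fallen where edgeR's quasi-likelihood test gave a Benjamini-Hochberg adjusted p under 0.05 over all 11427 genes tested; this test compares the reads of these libraries and not the conditions.

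Autophagy encloses portions of cytoplasm in a double membrane and delivers them to the lysosome. The Ulk kinase complex starts the process, a phosphatidylinositol 3-kinase complex around Vps34 marks the growing membrane, and Atg9 and Atg2 proteins supply lipid to it. Conjugating enzymes then attach Atg8 proteins (the LC3 and GABARAP families) to the membrane, where cargo receptors such as p62 bind them. In neurons the pathway is known for clearing damaged organelles and protein aggregates, and autophagosomes formed in the axon travel back to the cell body.

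The agent of the comparison is a short sequence, and it is shown because a seed match to it can be looked for in the autophagy transcripts. The mature microRNA (RefSeq, GRCm38.p6, chr11:75173723-75173744, plus strand) has its seed, bases 2 to 8, in capitals, and in the insert the capitals mark the bases that pair with that seed.
mmu-miR-132-3p: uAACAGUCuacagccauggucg
anti-miR132-3p insert: cgaccatggctgtaGACTGTTa
scramble insert: tcgagggcgacttaaccttagg
The anti-miR132-3p insert is the reverse complement of the whole microRNA, and the scramble insert holds the seed complement on neither strand. Libraries of polyadenylated RNA do not measure the mature microRNA, so its level was not analysed here.

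Complements of the whole seed stood in a few autophagy transcripts, at a share near that of all genes. Of the 37 tested genes, all with an annotated 3′ UTR in GENCODE M21, 4 held the heptamer GACTGTT, 10.8%, against 12.6% of 10248 tested genes with a 3′ UTR. Only the transcript strand of 1 representative transcript per gene was searched. In 1 of the 4, Pik3r4, an A follows the heptamer and completes the octamer GACTGTTA, which overlaps it. A shorter seed complement followed by an A, ACTGTTA, stood without GACTGTT in 1 further gene, against 8.16% of those tested genes. The GACTGTT sites are shown with flanking bases, the match in capitals, because their genes passed the test.
Pik3r4: gttttgaagtGACTGTTActgtttcat
Wipi2: tccacgggggGACTGTTgttctgggtc
Rb1cc1: agcatcttagGACTGTTtcaagtaatc
The fourth was Atg12. Pik3r4 and Wipi2 rose and Rb1cc1 and Atg12 fell, so the genes with GACTGTT lay on both sides. A match is a description of letters, not a shown site.

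The autophagy genes moved in both directions by small amounts. Of 37 tested, 7 rose, against 13.5% of all tested genes, and 8 fell, against 10.4% of all; among the autophagy genes these counts are 18.9% and 21.6%. Together the 15 compare with 23.8% of all tested genes called in either direction. With either scramble library left out the test called none of the 15, without anti-miR132-3p library 1 it called Atg2b, Gabarapl1, Map1lc3b and Sqstm1, and without library 2 Gabarapl1, Map1lc3b, Nbr1 and Wipi2. DESeq2's Wald test called Gabarapl1, Map1lc3b, Nbr1 and Sqstm1, and with no filter on low counts edgeR called 0 in either direction (7 higher and 9 lower at an unadjusted p under 0.05). The median log2 fold change was -0.09, beside -0.0030 over all tested genes, and single values ran from -0.52 (Atg101) to 0.77 (Atg2b). At least 1.25-fold higher were 10 of the 37, against 24.0% of all tested genes, and at least 1.25-fold lower were 5, against 16.3%. Both anti-miR132-3p libraries lay above both scramble libraries for 13 genes (31.3% of all tested genes did so) and below both for 17 (30.6%). All 15 kept their sign under each of these.

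**Figure D1:**
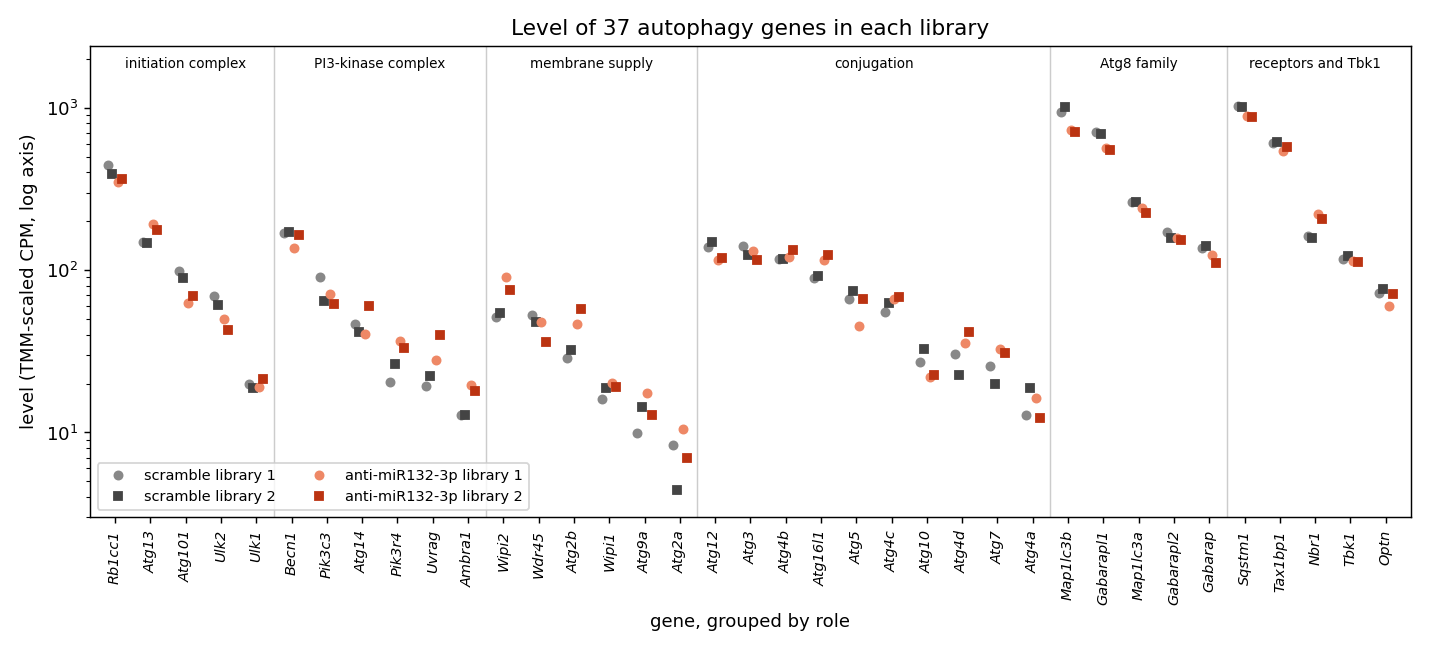
Level of the 37 tested autophagy genes in each of the 4 libraries, in TMM-scaled CPM on a log axis, grouped by role and ordered by the scramble level. Grey symbols are scramble and orange and red symbols anti-miR132-3p libraries; Map1lc3b, Gabarapl1 and Sqstm1 stand at the top with the latter below the grey ones, and Wipi2, Atg2b and Nbr1 have them above.

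The Atg8 proteins are ubiquitin-like and are joined to lipid on the autophagosome. All 5 of their genes were lower with anti-miR132-3p, and 2 of the 5 fell by the test, against 10.4% of all tested genes. For all 5 both anti-miR132-3p libraries lay below both scramble libraries, as for 30.6% of all tested genes. Map1lc3b, which encodes LC3B, the usual marker of autophagosomes, was at 943 and 1012 CPM with scramble and at 730 and 711 CPM with anti-miR132-3p. The groups did not overlap, and Map1lc3b fell 1.36-fold (1.29 to 1.43). Gabarapl1, a GABARAP paralog abundant in neurons, was at 707 and 688 CPM against 568 and 552 CPM and fell 1.25-fold (1.17 to 1.32). These are the 2 most counted genes of the family, and the groups did not overlap for either. Exons of Map1lc3b overlap those of Zcchc14 on the opposite strand (85, 91, 92 and 84 counts), and their reads could not be separated by strand.

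The other Atg8 genes were lower by less. Map1lc3a, encoding LC3A, was 1.12-fold lower (1.02 to 1.23), Gabarap 1.18-fold lower (1.03 to 1.35) and Gabarapl2 1.06-fold lower (0.945 to 1.2), and none of the 3 passed the test. Map1lc3a fell by the test after a correction for GC content and transcript length, with a log2 fold change of -0.26. Gabarap moved from a log2 fold change of -0.24 to -0.017 with that correction and did not pass the test. Gabarapl2, which had -0.09 before that correction, had 0.22 after it and did not pass the test, so the family no longer moved one way. The summed level of the 5 genes was 2219 and 2261 CPM with scramble and 1819 and 1752 CPM with anti-miR132-3p, a sum 1.25-fold lower (1.21 to 1.30).

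Within the family the mix of counts moved a little. Map1lc3b made up 43.6% of the Atg8 counts with scramble (42.6 to 44.7) and 40.3% with anti-miR132-3p (39.1 to 41.6), and these intervals do not overlap. Gabarapl1 held 31.1% (30.1 to 32.1) and 31.4% (30.2 to 32.5), a difference within the counting error. Per kilobase of transcript, the scale on which genes can be set side by side, Gabarapl1 (383 CPM per kb) and Map1lc3b (371 CPM per kb) led in the scramble group, followed by Map1lc3a at 236, Gabarap at 103 and Gabarapl2 at 98.1 CPM per kb.

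Cargo receptors carry ubiquitin-tagged material to the Atg8 proteins, and Nbr1 went against the rest. Nbr1, a receptor for aggregates and peroxisomes that acts with p62, was at 161 and 157 CPM with scramble and at 223 and 206 CPM with anti-miR132-3p. It rose 1.35-fold (1.21 to 1.50), with no overlap between the groups. Sqstm1, which encodes p62, was at 1018 and 1006 CPM against 887 and 881 CPM and fell 1.15-fold (1.09 to 1.20). It was the most counted autophagy gene in these cells, and at 497 CPM per kb in the scramble group also the highest per length. The number of Nbr1 counts per Sqstm1 count, a ratio taken within a library and free of scaling, was 0.159 and 0.156 with scramble and 0.251 and 0.233 with anti-miR132-3p, 1.54-fold higher (1.37 to 1.74).

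Tax1bp1, a receptor of protein aggregates related to the Calcoco proteins, was at 607 and 614 CPM against 542 and 572 CPM. It fell 1.10-fold (1.03 to 1.17), the smallest change among the genes that passed the test, and did not pass with the GC and length correction (log2 fold change -0.05). Optn, the receptor optineurin, whose mutations cause a form of glaucoma in people, was at 72.1 and 76.4 CPM against 59.7 and 71.4 CPM, 1.13-fold lower (0.945 to 1.36). Tbk1, the kinase that phosphorylates optineurin and p62 and that also acts in interferon induction, was at 117 and 122 CPM against 113 and 111 CPM, 1.07-fold lower (0.927 to 1.23). For Optn and Tbk1 the intervals include no difference, and neither passed the test.

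In the Ulk initiation complex 1 of 5 genes rose and 3 fell, against 13.5% and 10.4% of all tested genes. Atg13, the regulatory subunit that holds the complex together, was at 149 and 147 CPM with scramble and at 193 and 176 CPM with anti-miR132-3p and rose 1.25-fold (1.11 to 1.40). Its partner Atg101, which stabilises Atg13, was at 98.8 and 89.6 CPM against 62.6 and 69.1 CPM and fell 1.43-fold (1.21 to 1.70). So 2 subunits that bind each other had opposite signs, and the number of Atg13 counts per Atg101 count was 1.51 and 1.64 with scramble and 3.08 and 2.55 with anti-miR132-3p, 1.79-fold higher (1.45 to 2.20). Atg13 did not pass the test after the GC and length correction (log2 fold change 0.13), whereas Atg101 did (-0.52).

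Rb1cc1, known as FIP200, the large scaffold of the complex, was at 442 and 390 CPM against 346 and 363 CPM and fell 1.17-fold (1.09 to 1.26). Ulk2, one of the paired kinases, was at 69.4 and 60.9 CPM against 49.9 and 43.0 CPM and fell 1.40-fold (1.14 to 1.73). Its paralog Ulk1 was at 20.0 and 18.8 CPM against 19.1 and 21.5 CPM, 1.05-fold higher (0.741 to 1.48), and did not pass the test. At these counts the interval for Ulk1 overlaps that for Ulk2 (0.579 to 0.875), and the difference between the paralogs was not tested. After the GC and length correction both were lower. Ulk2 was then at a log2 fold change of -0.53 and passed the test, and Ulk1 was at -0.37 and did not. Per kilobase, Ulk2 stood at 11.3 and Ulk1 at 5.42 CPM per kb in the scramble group.

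The phosphatidylinositol 3-kinase complex makes the lipid that recruits later factors. Of its 6 genes 2 rose and 0 fell, against 13.5% and 10.4% of all tested genes. Uvrag, which replaces Atg14 in the complex that acts on endosomes, was at 19.4 and 22.1 CPM against 27.8 and 40.1 CPM and rose 1.63-fold (1.21 to 2.21). Pik3r4, the Vps15 subunit, was at 20.5 and 26.6 CPM against 36.5 and 33.1 CPM and rose 1.48-fold (1.11 to 1.98), with an adjusted p of 0.0497 by edgeR's quasi-likelihood test, just under the threshold. Neither passed after the GC and length correction. Becn1, beclin 1, was at 168 and 172 CPM against 136 and 165 CPM, and Pik3c3, the Vps34 kinase itself, at 90.4 and 64.7 CPM against 70.7 and 61.5 CPM; neither passed the test, and the 2 groups overlapped for Pik3c3. Becn1 was 1.13-fold lower (1.00 to 1.27) and Pik3c3 1.17-fold lower (0.981 to 1.40).

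Ambra1, an activator of the complex, was 1.48-fold higher (0.999 to 2.21), and Atg14, its autophagosome-specific subunit, 1.14-fold higher (0.913 to 1.42), without passing the test. Summed over the 6 genes the level was 358 and 339 CPM with scramble and 332 and 378 CPM with anti-miR132-3p, so the sum did not separate the groups (1.02-fold, 0.940 to 1.10).

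Genes that supply and shape the membrane had 2 of 6 members higher and 0 lower, against 13.5% and 10.4% of all tested genes. Atg2b, one of a pair of lipid transfer proteins that bridge the endoplasmic reticulum and the growing membrane, was at 28.9 and 32.1 CPM against 46.4 and 57.5 CPM. It rose 1.70-fold (1.34 to 2.18), the largest fold among the 37 genes. Exons of Atg2b overlap those of Gskip on the opposite strand, which had 113, 92, 87 and 96 counts. Wipi2, which reads the lipid mark and recruits Atg16l1, was at 51.6 and 54.8 CPM against 91.0 and 75.5 CPM and rose 1.57-fold (1.30 to 1.89). Both kept their direction and passed the test with the GC and length correction (log2 fold changes 0.61 and 0.44).

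The other 4 genes of this role did not pass the test. Atg2a, the Atg2b paralog, was at 8.32 and 4.43 CPM against 10.4 and 6.97 CPM, 1.37-fold higher (0.767 to 2.46), too few counts to separate it from Atg2b or from no difference. Atg9a, the lipid scramblase, was 1.24-fold higher (0.812 to 1.89). Its exons overlap those of Ankzf1 on the opposite strand, and without a stated strand setting their reads cannot be told apart. Ankzf1 had 43 and 40 counts with scramble and 56 and 61 with anti-miR132-3p, beside 18 and 26 against 30 and 22 for Atg9a. Wipi1 was 1.13-fold higher (0.790 to 1.62). Wdr45, a Wipi relative mutated in a neurodegenerative disease with brain iron, was at 52.7 and 47.6 CPM against 47.5 and 36.0 CPM, 1.20-fold lower (0.959 to 1.50).

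Conjugation genes were split, with 1 of 10 higher and 1 lower, near the 13.5% and 10.4% of all tested genes. Atg16l1, which directs lipidation to the membrane, was at 89.9 and 91.3 CPM against 115 and 124 CPM and rose 1.32-fold (1.14 to 1.53). Atg12, the ubiquitin-like protein that Atg16l1 holds in a complex with Atg5, was at 139 and 149 CPM against 115 and 118 CPM and fell 1.24-fold (1.08 to 1.41). The number of Atg16l1 counts per Atg12 count was 0.645 and 0.613 with scramble and 0.995 and 1.05 with anti-miR132-3p, 1.63-fold higher (1.33 to 1.99). After the GC and length correction Atg12 still passed the test (log2 fold change -0.28) and Atg16l1 did not (0.25).

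The remaining 8 conjugation genes did not pass the test. Atg5 was at 66.6 and 74.1 CPM against 45.2 and 66.2 CPM, 1.26-fold lower (1.04 to 1.53), and Atg10, the enzyme that joins Atg12 to Atg5, 1.34-fold lower (0.991 to 1.82). Atg7, the activating enzyme for both conjugation systems, was 1.39-fold higher (1.04 to 1.88), and Atg3, which transfers Atg8 proteins to lipid, was at 141 and 124 CPM against 132 and 116 CPM, 1.07-fold lower (0.938 to 1.22), with overlapping groups. Among the Atg4 proteases, which trim and release Atg8 proteins, Atg4d was 1.45-fold higher (1.11 to 1.91), Atg4c 1.14-fold higher (0.939 to 1.37), Atg4b 1.09-fold higher (0.951 to 1.25) and Atg4a 1.11-fold lower (0.745 to 1.66). The summed conjugation level was 705 and 712 CPM against 700 and 733 CPM, 1.01-fold (0.957 to 1.07).

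**Figure D2:**
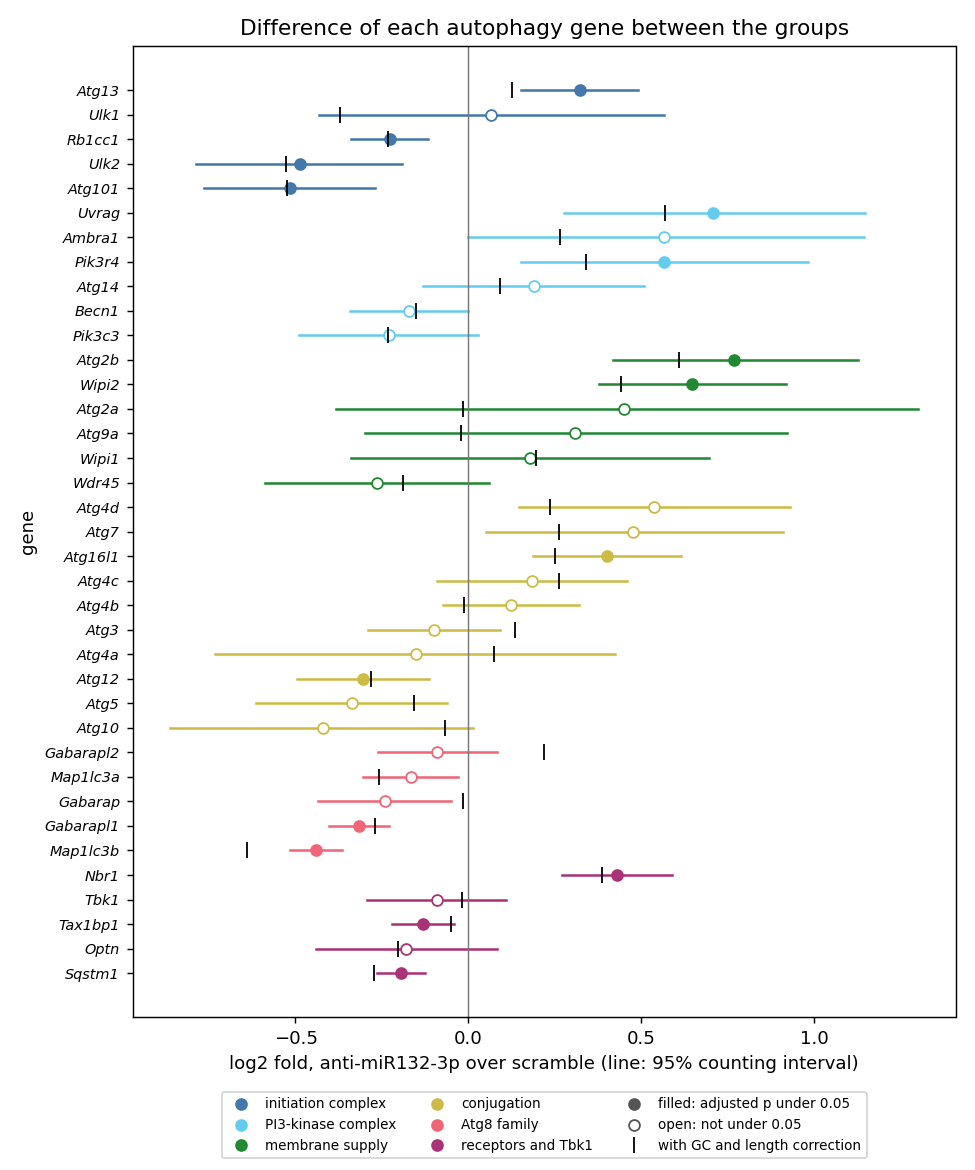
Log2 fold of each of the 37 tested genes, anti-miR132-3p over scramble, with the 95% counting interval as a line, by role. Filled circles passed the test and black ticks give the value after the GC and length correction; all 5 Atg8 circles lie left of 0 (4 of the 5 ticks do), and 5 of the 6 membrane supply circles lie to the right (3 of the 6 ticks do).

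Set side by side, the sums of the roles, which were not tested, differed in direction. Genes of membrane supply reached 137% and 122% of the scramble group in the 2 anti-miR132-3p libraries, a sum 1.30-fold higher (1.17 to 1.45), while Atg8 genes were at 81.2% and 78.2%. Without Wipi2 and Atg2b the other 4 membrane supply genes summed to 87.1 and 85.2 CPM with scramble and 95.7 and 74.9 CPM with anti-miR132-3p, 0.990-fold (0.841 to 1.16), so those 2 genes carried the role's difference. The role's median log2 fold change was 0.38, and 0.090 after the GC and length correction. Counts of membrane supply genes per Atg8 count were 0.0755 and 0.0761 with scramble and 0.128 and 0.119 with anti-miR132-3p, 1.63-fold higher (1.45 to 1.82). Initiation genes were 1.10-fold lower in sum (1.04 to 1.17) and receptors with Tbk1 1.08-fold lower (1.04 to 1.12). With scramble, Rb1cc1 held 1500 of the 2678 initiation counts and Sqstm1 3653 of the 7130 receptor counts, so these sums follow those genes most. Over all 38 genes the sum was 6204 and 6165 CPM with scramble and 5580 and 5584 CPM with anti-miR132-3p, 1.11-fold lower (1.09 to 1.13). Sqstm1, Map1lc3b, Gabarapl1 and Tax1bp1, which all fell, alone held 53.3% of these counts with scramble and 48.7% with anti-miR132-3p. The sum follows these most counted genes and is not a shift of the whole set. Of the 37 tested genes, 17 had a log2 fold change above 0 and 20 below.

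**Figure D3:**
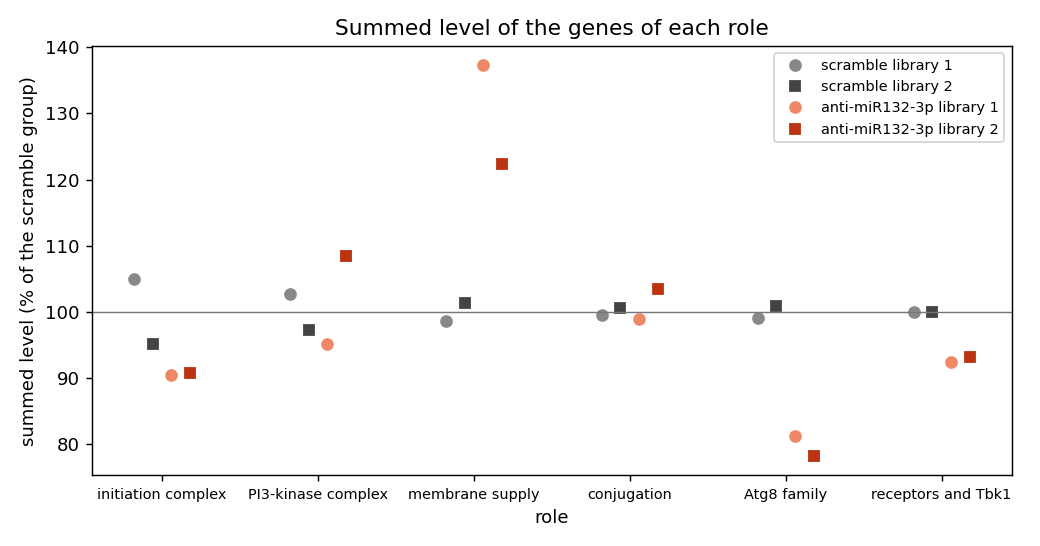
Summed level of the genes of each role in each library, as a percentage of the scramble group's level, with grey symbols for scramble and orange and red for anti-miR132-3p libraries. Membrane supply lies at 137% and 122% and the Atg8 family at 81.2% and 78.2% in the anti-miR132-3p libraries, and for the PI3-kinase complex and conjugation the groups overlap.

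Transcript length moved with the differences. Across the 37 genes, which share libraries and are not replicates, the log2 fold change had a Spearman rank correlation of 0.57 with the length of the representative transcript and 0.22 with its GC content, beside 0.29 and 0.24 across 11273 tested genes with a transcript model. Length was not the only such property: the rank correlation with the scramble CPM was -0.49 over the 37 genes. That level also enters the fold itself. Genes that rose had a median length of 4789 bases (3102 to 7546) and those that fell 2959 bases (1270 to 7607). Rb1cc1, at 7607 bases the longest of the 37, and Ulk2, at 5743 bases, fell, so not every long transcript was higher. After the GC and length correction 3 genes passed as higher (Atg2b, Wipi2 and Nbr1) and 8 as lower, against 10.8% and 8.09% of genes in that fit, and the median log2 fold change was -0.017. Of the 15 genes called before it, 10 were called in the same direction after it, and all 15 kept their sign.

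**Figure D4:**
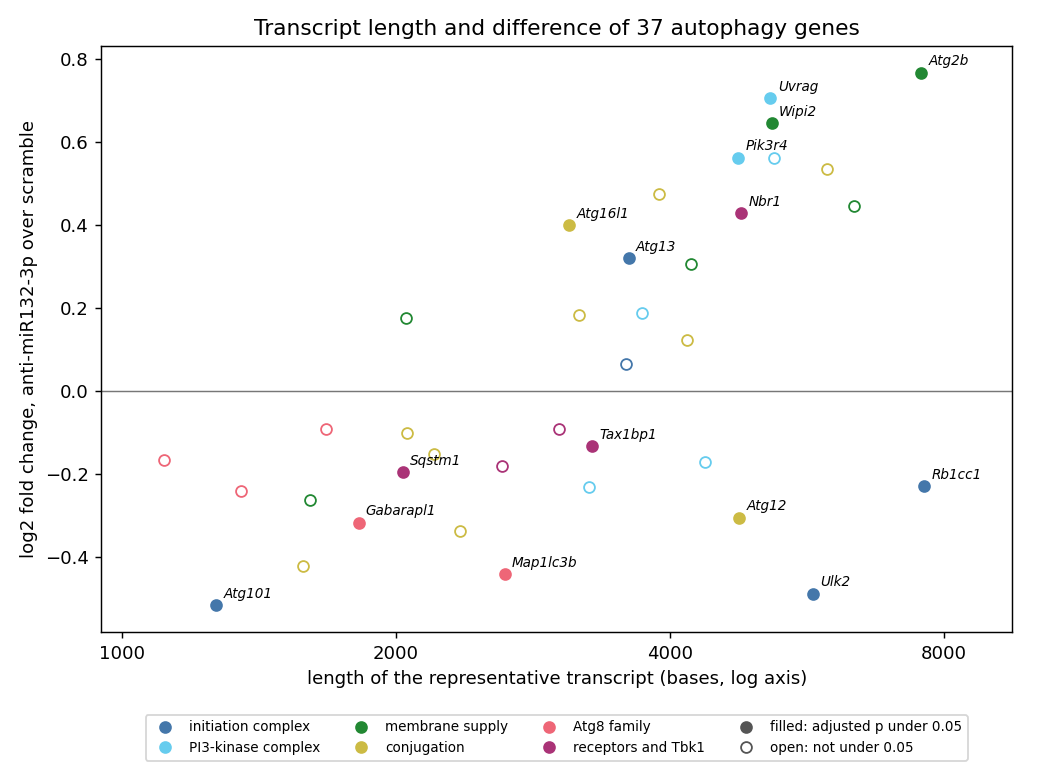
Log2 fold change of each of the 37 tested genes against the length of its representative transcript (log axis), coloured by role, with filled circles for genes that passed the test. The genes that rose lie between 3102 and 7546 bases; Rb1cc1, Ulk2 and Atg12 are long transcripts below 0.

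Tfeb encodes the transcription factor that drives lysosomal and autophagy genes through an element built on CACGTG. It was listed at 0 counts in all 4 libraries, which allows up to 1.62 to 1.73 CPM per library for counting error. The table also lists 0 for Gad1, although Gad2, its partner in the same cells, had 1365 counts with scramble, so only the listed 0 is given for Tfeb. Its relative Tfe3, which binds the same element, was at 23.3 and 19.4 CPM against 30.7 and 33.1 CPM and rose 1.50-fold (1.11 to 2.03). The adjusted p of Tfe3 by edgeR's quasi-likelihood test was 0.0475, just under the threshold. Tfe3 did not pass after the GC and length correction (log2 fold change 0.26).

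Promoter sequences from RefSeq (GRCm38.p6, 250 bases before to 50 after the start) were at hand for 32 of the 38 genes. The palindrome CACGTG, which reads the same on both strands, was in 5 of the 32, 15.6%, against 12.2% of 8485 tested genes with a promoter sequence. The windows are shown with the motif in capitals, on the strand of the gene, to place the letters near the start site.
Atg3 (chr16:45158724-45158751, plus strand): cctccttttgtCACGTGtcctgggagag
Atg3 (chr16:45158747-45158774, plus strand): gagagtcgagtCACGTGaggccttaggt
Atg5 (chr10:44268314-44268341, plus strand): ggagcgcttgcCACGTGgtcttggtgac
Atg7 (chr6:114670953-114670980, plus strand): atattggtggtCACGTGtgcagtaagtg
Atg14 (chr14:47568419-47568446, minus strand): aaacaaaatccCACGTGactggccctga
Tbk1 (chr10:121586773-121586800, minus strand): ccgcactcggtCACGTGctccgtggccc
None of these 5 genes passed the test in either direction.

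Other genes of the pathway were read from 4 further lists, of which 56 of 59 genes were tested. Of these 11 rose and 7 fell, or 19.6% and 12.5%, against 13.5% and 10.4% of all tested genes. Those shares of all tested genes are the ones to set beside each list below, and no list was tested as a set. Among upstream regulators 6 of 20 rose and 1 fell. Tsc2, which restrains mTORC1, was at 13.9 and 18.8 CPM against 28.4 and 30.8 CPM and rose 1.81-fold (1.30 to 2.54), and Stk11, the kinase LKB1 that activates AMPK, rose 1.64-fold (1.33 to 2.02). Mlst8 and Rptor, subunits of mTORC1, rose 1.61-fold (1.18 to 2.20) and 1.53-fold (1.13 to 2.08). The members that rose thus include both restraints and subunits of mTORC1, and none of the 6 passed the test after the GC and length correction. The 1 that fell was Rheb, 1.24-fold lower (1.16 to 1.33), and it did not pass after the correction either (log2 fold change -0.063).

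Of 11 further core and accessory genes, 1 rose and 3 fell. Wdr45b, a Wipi relative, was at 91.6 and 93.5 CPM against 56.2 and 70.8 CPM and fell 1.46-fold (1.22 to 1.74), and Tecpr1, which tethers autophagosomes to lysosomes, fell 1.38-fold (1.12 to 1.69). Vmp1, a scramblase of the endoplasmic reticulum, fell 1.22-fold (1.11 to 1.35). Rubcn, which inhibits the Uvrag complex, rose 1.54-fold (1.17 to 2.03). After the GC and length correction Wdr45b and Tecpr1 still passed the test, and Rubcn (log2 fold change 0.33) and Vmp1 (-0.16) did not.

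Of 14 tested further receptors, 2 rose and 2 fell. Retreg1, the receptor for autophagy of the endoplasmic reticulum known as FAM134B, was at 92.7 and 78.6 CPM against 51.6 and 53.4 CPM and fell 1.63-fold (1.35 to 1.97). Bnip3l, a receptor for mitochondria, fell 1.23-fold (1.13 to 1.34). Fkbp8, also on mitochondria, rose 1.32-fold (1.13 to 1.55), and Rtn3, a receptor on endoplasmic reticulum tubules, rose 1.10-fold (1.05 to 1.15). Of these 4, Fkbp8 did not pass the test after the GC and length correction (log2 fold change 0.16).

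Fusion genes had 2 of 11 tested members higher and 1 lower. Ykt6, a SNARE of autophagosome fusion, rose 1.37-fold (1.14 to 1.64) and Vps39, of the HOPS tether, 1.32-fold (1.15 to 1.53), whereas Rab7, the late endosome GTPase, fell 1.12-fold (1.05 to 1.19). After the GC and length correction Ykt6 and Vps39 still passed the test and Rab7 did not (log2 fold change -0.039). Among 20 lysosomal genes 1 rose and 4 fell, with a median log2 fold change of -0.0073. Lamp1, a major protein of the lysosomal membrane, was at 206 and 241 CPM against 116 and 131 CPM and fell 1.81-fold (1.61 to 2.04), and it passed the test after the correction as well. Cd63 and Atp6v1h fell 1.22-fold (1.07 to 1.39) and 1.18-fold (1.10 to 1.27), but neither passed the test after the correction, where their log2 fold changes had the opposite sign (0.028 and 0.012).

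Markers of other retinal cells and of interferon moved between the groups as well. The sum over 9 ganglion cell markers, all of them detected, was 1819 to 1836 CPM with scramble and 1977 to 2042 CPM with anti-miR132-3p. Thy1, the surface protein used for panning, and Tubb3 rose and Pou4f1 fell. Of the 8 tested markers 4 had a log2 fold change above 0 and 4 below, with a median of -0.025, so the list did not rise as a whole. Amacrine markers summed to 521 to 522 and 722 to 723 CPM, with 4 of 7 at 0 in all libraries (Tfap2b, Gad1, Slc32a1 and C1ql2), and 7 Müller glia markers to 126 to 129 and 161 to 175 CPM. Without Apoe, which had 69 and 218 counts in the groups and rose, the other 6 Müller glia markers summed to 108 to 109 and 95.1 to 114.9 CPM, and the groups overlapped. Rod markers summed to 89.6 to 100.4 and 26.7 to 29.0 CPM, with 2 of the 7 at 0, Gnat1 among them. The 10 microglia markers held 5 counts with scramble and 65 with anti-miR132-3p, Trem2 being at 0, and 10 interferon response genes summed to 103 to 117 and 576 to 594 CPM, all 9 tested ones having risen. The part of these in the differences of autophagy genes was not tested, and in bulk RNA fewer cells of a type and less RNA per cell cannot be told apart.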

How the data were processed

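The authors deposited raw counts per gene for 4 libraries, 2 per group, with no normalization. The submitters' processing notes name GRCm39 and, without roles, SAMtools 1.10, HISAT2 2.2.1, Trimmomatic 0.39 and the Cufflinks tools; counter, annotation release and strandedness: not given in the sources used here. Symbols were found for 51486 of 78334 identifiers; unnamed ones held 0.433% to 0.437% of the counts. Transcript lengths, GC content and 3′ UTRs come from GENCODE M21 (GRCm38), an older build, using the transcript with the longest coding sequence.

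The main test was edgeR 4.0.16 under R 4.3.3 (filterByExpr, which kept 98.6% of the counts, TMM, glmQLFit, glmQLFTest); limma 3.58.1 and DESeq2 1.42.0 served as alternatives. The GC and length correction used spline fits with 4 degrees of freedom per library, centred on the median gene, as edgeR offsets; the centring was added after seeing the data. The test was tested on simulated data.

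The genes and lists were chosen with earlier results of these data known. By rule, values per library are given for each gene called and for the 2 most counted genes of each role, and of each further list up to 4 called genes with the largest log2 fold change; 1 such lysosomal gene is not reported here. Per-library values of Ulk1, Optn, Tbk1, Atg5, Atg2a and Tfe3 and the fold of Rheb were chosen after values were seen. The same holds for the minimum fold of 1.25, the ratios of counts within a library and the sums without Wipi2 and Atg2b or Apoe. Other scalings, filters, tests, left-out libraries, assumed spreads and a replicate block were tried as alternatives. Nothing says that the paired libraries are separate animals, so p-values measure only the spread between libraries, which may be technical.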

Additional observations from a re-analysis of the deposited data

How the results depend on the processing

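By edgeR's quasi-likelihood test 7 autophagy genes were called higher and 8 lower, and 1540 and 1183 of all genes. With no filter on low counts it called 0 and 0 (7 and 9 at an unadjusted p under 0.05), and 1 and 2 of all genes; with a filter of 1 CPM in 2 libraries it called 0 and 3 (9 and 10 unadjusted), and 307 and 183 of all. DESeq2's Wald test called 1 and 3 (6 and 6 unadjusted), and 477 and 276 of all. Counts summed by group under edgeR's likelihood ratio test gave 0 and 0 (5 and 2 unadjusted), and 470 and 56 of all, at a coefficient of variation set to 0.1; at 0.2 they gave 0 and 0 (0 and 0 unadjusted), and 50 and 6 of all. The GC and length correction called 3 and 8, and the median log2 fold change of the autophagy genes moved from -0.092 to -0.017. Leaving out 1 library by edgeR gave 0 to 2 autophagy genes higher and 0 to 3 lower, and 0 to 427 and 0 to 218 of all genes, with medians of -0.072 to -0.0038. The counts of 0 came without scramble replicate 1 (5 and 6 autophagy genes unadjusted, 1544 and 1212 of all) and without scramble replicate 2 (5 and 8, and 1491 and 1151), and the median of -0.0038 without scramble replicate 1. In these fits the single library left in a group takes its spread from the other group. The cause of these shifts was not tested.

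DESeq2 size factors in edgeR, library totals alone and limma-voom gave counts within 1.5 times of these. All 15 calls kept their sign under all 14 alternatives, and the 5 Atg8 genes stayed below 0 in all of them except the GC and length correction, where 4 did. With the replicate block 8 were higher and 9 lower, adding Atg4d and Gabarap. The correlation of same-numbered deviations was 0.013. Libraries of a group differed by no more than sampling noise, so this value cannot show whether same-numbered libraries share anything beyond the number.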
